A study of Mus musculus with 16 samples.

Results

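Matrix metalloproteinases are zinc-dependent enzymes that are made as inactive precursors and, once activated, cleave collagens, gelatin, proteoglycans, laminins and cell surface proteins. In skin wounds they are known from migrating keratinocytes, fibroblasts, macrophages and neutrophils, and many of them are induced by cytokines such as interleukin-1 and tumor necrosis factor through the transcription factor AP-1. Tissue inhibitors of metalloproteinases bind the active enzymes and block them, and an excess of protease over inhibitor has long been discussed in wounds of diabetic animals that heal slowly. Here 9 metalloproteinase genes and 1 inhibitor gene were followed. They were the stromelysins Mmp3 and Mmp10, the macrophage elastase Mmp12, the collagenases Mmp13 and Mmp1a, and the collagenase-like Mmp1b. The others were the gelatinases Mmp2 and Mmp9, the membrane-bound Mmp14, and Timp1. Every probe whose accession led to one of these symbols in the RefSeq gene table was taken, which gave 11 probes for 10 genes, of 39429 probes and 20832 named genes on the arrays. All 10 genes had a probe, and Mmp12 alone had 2.

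RNA came from homogenates of full-thickness back wounds of 4 mm with the intact skin around them, so that epidermis, dermis, infiltrating cells, fat and muscle were measured together, and fewer cells of a type cannot be told apart from less RNA per cell. The WT group was female C57BL/6J mice of 10 to 12 weeks, and the db/db groups were female C57BLKS/J Iar-+Lepr db/+Lepr db mice that carry the db mutation of the leptin receptor gene on both copies and were 10 weeks old. Strain background therefore differs along with genotype. Topical estradiol benzoate, 0.75 μg/g/day, was applied in sesame oil to the wounds of the db/db + estrogen group, and oil without the hormone to those of the db/db + vehicle group (below also estrogen and vehicle), while neither the db/db nor the WT group was treated. Each mouse carried 2 wounds under a hydrocolloid dressing. Arrays numbered 2 per group and labelled day, 16 in all, described as biological replicates, and whether they came from separate mice or pools is not given in the sources used here. For labelled day 7, every group had its replicate 1 on one slide and its replicate 2 on another. For labelled day 14, one slide held both db/db arrays and another both WT arrays, and these slides were scanned apart from the first pair, so that labelled day and scan cannot be told apart. No slide of that label held both groups, so that a difference between db/db and WT there includes any difference between slides.

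The labelled days need care. Fold changes printed for single genes in the study's tables were set against the arrays: of 131 checked, 0 lay within 1% of the value on arrays with the same day, while every one whose accession had a probe lay within 1% of the value on arrays of the other labelled day. Which of them was exchanged, label or printed day, cannot be told apart, and arrays are named below by their labels. A comparison within a labelled day is untouched by this exchange, but its time after wounding is open.

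The level of a gene is given as the log2 of its background-subtracted signal minus the log2 of the 75th percentile of its array, so that 0 is the signal at that percentile. Levels of different genes are not compared, since probes differ in brightness. The 75th percentile ran from 1091 to 2549 signal units, the lowest being that of WT day 14 replicate 2, and the share of probes well above background was 70.1% to 79.0%. Of the 10 genes, 8 were well above background on all 16 arrays, Mmp1b on 12 and Mmp1a on 8. Differences between groups are log2 differences with their standard error (SE) from limma, fitted to 8 groups of 2 arrays. A difference passed when its Benjamini-Hochberg adjusted p over all probes tested was below 0.05 and its fold change was above 2. With 2 arrays in a group an exact permutation test cannot go below p = 0.333.

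The 6 genes Mmp13, Mmp12, Mmp1b, Mmp3, Mmp1a and Mmp10 are direct neighbours, in this order, on mouse chromosome 9 in RefSeq's annotation of GRCm38.p6, and Mmp8 lies just beyond them. The 100 bases before the annotated start are shown for these genes because AP-1 is the known meeting point of the signals that induce them. Capitals mark the AP-1 letters TGAGTCA or their reverse complement TGACTCA, which are 7 bases long, do not overlap another copy here and are written 5′ to 3′ along the gene.
Mmp13, chr9:7272414-7272513, + strand: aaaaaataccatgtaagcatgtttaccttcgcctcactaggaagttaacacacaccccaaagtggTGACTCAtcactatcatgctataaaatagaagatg
Mmp12, second annotated start, chr9:7347274-7347373, + strand: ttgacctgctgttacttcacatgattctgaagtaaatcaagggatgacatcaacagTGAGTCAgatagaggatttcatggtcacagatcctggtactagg
Mmp1b, chr9:7388027-7388126, - strand: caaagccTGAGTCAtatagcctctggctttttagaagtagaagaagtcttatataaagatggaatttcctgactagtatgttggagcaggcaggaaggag
Mmp3, chr9:7445722-7445821, + strand: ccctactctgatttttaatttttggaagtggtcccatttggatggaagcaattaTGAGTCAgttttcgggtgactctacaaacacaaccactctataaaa
Mmp1a, chr9:7464041-7464140, + strand: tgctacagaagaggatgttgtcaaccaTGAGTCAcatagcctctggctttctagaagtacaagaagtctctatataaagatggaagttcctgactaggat
Mmp10, chr9:7502242-7502341, + strand: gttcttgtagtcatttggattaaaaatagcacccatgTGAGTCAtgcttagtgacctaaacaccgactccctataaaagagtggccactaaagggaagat

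The AP-1 letters began 35 bases before the start in Mmp13, 44 in Mmp12, 46 in Mmp3, 63 in Mmp10, 73 in Mmp1a and 93 in Mmp1b. Windows of 300 bases, from 250 before to 50 after the start, were in the table for 8 of the 10 genes, and the letters were in those of the same 6 genes on either strand. Among the 32851 windows of all genes, 5.20% held them. The windows of Mmp14 and Timp1 and the other window of Mmp12 held no copy, and Mmp2 and Mmp9 were not in the table. The windows of Mmp1a and Mmp1b, copies of the collagenase gene that humans carry once, were identical at 74.8% of 326 aligned positions. A match of letters is a description of the sequence and does not show that AP-1 binds there in these wounds.

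The plainest changes were seen on the arrays labelled day 7. Mmp9, Mmp1b and Timp1 were higher in db/db than in WT wounds, 3 of the 10 genes, while 4.18% of all probes tested were called higher. Mmp10, Mmp9, Mmp1b and Timp1 were lower in estrogen-treated than in untreated db/db wounds, 4 of the 10 genes, against 2.62% of all probes called lower. With vehicle 0 of 10 genes passed against untreated db/db by limma's adjusted p, where 0.148% of all probes were called in either direction. An unadjusted p below 0.05, at any fold change, was held by 3 of the 10 genes and 4053 of 29801 probes. When estrogen was set against vehicle, Mmp9 and Mmp1b were lower, 2 of the 9 genes tested, where 1.26% of all probes were called lower. The medians over the genes tested were 1.61, -1.97, -0.99 and -1.42 on the log2 scale in these comparisons in turn, beside medians over all probes between -0.05 and 0.04. The comparisons share arrays, those of db/db or of estrogen, so that they are not independent of each other. Mmp1b entered its tests only through the db/db or vehicle arrays, since it was not well above background in WT or with estrogen.

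On the arrays labelled day 14, Mmp2 alone was higher in db/db than in WT, 1 of the 9 genes tested, where 1.57% of all probes were called higher and the median of all probes was -0.12. No gene passed with estrogen against db/db (0 of 9, 0.0991% of all probes called) or with vehicle against db/db (0 of 9, 0.193% of all probes called). Nor did any with estrogen against vehicle by limma, with 0 of 9 genes and 0% of all probes called. An unadjusted p below 0.05, at any fold change, was held by 4 genes and 2524 of 28251 probes for estrogen against db/db. For vehicle against db/db it was held by 3 genes and 5086 of 29052 probes. For estrogen against vehicle it was held by 0 genes and 1559 of 28985 probes.

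Counts without adjustment, at a p below 0.05 with a fold change above 2, are given beside. For labelled day 7, 6 genes were higher in db/db than in WT (5.68% of all probes), 7 were lower with estrogen against db/db (4.71%) and 1 was higher (5.2%), and 3 were lower with vehicle against db/db (2.31%). For labelled day 14 the counts were 1 higher (2.35%), 3 lower (1.35%) and 3 lower (2.2%). In either direction 5 genes passed it for estrogen against vehicle (8.98%), 2 for estrogen against WT (8.14%) and 6 for vehicle against WT (10.3%), all for labelled day 7.

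**Figure D1:**
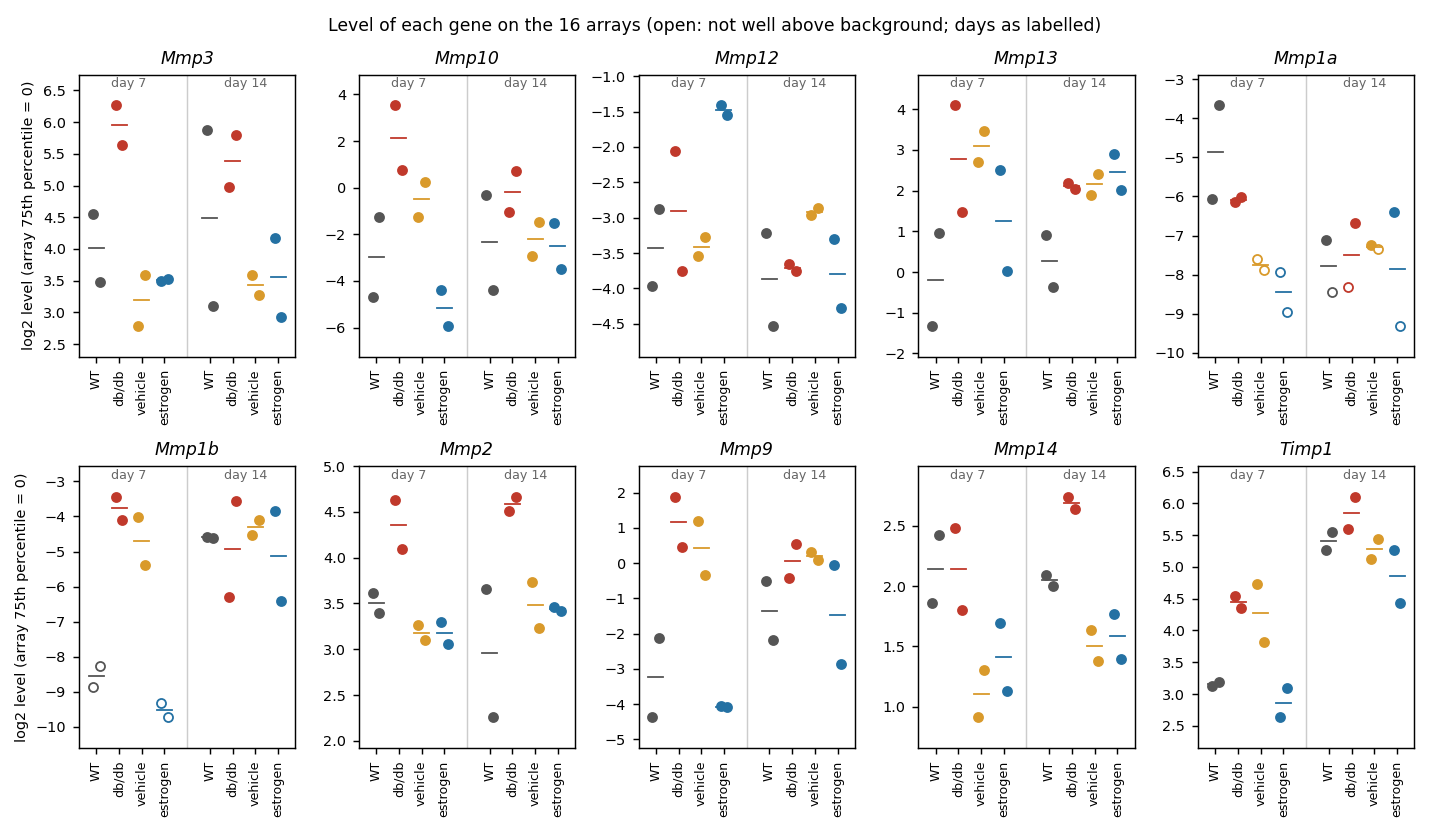
Log2 level (vertical axis, 0 = the 75th percentile of the array) of the 10 genes on each of the 16 arrays, with WT, db/db, db/db + vehicle and db/db + estrogen side by side for each labelled day. Points are single arrays, bars are means of 2 arrays and open points were not well above background. Mmp10, Mmp9, Mmp1b and Timp1 were lowest in the db/db + estrogen group of labelled day 7, where Mmp12 was highest.

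Mmp10, or stromelysin-2, cleaves laminins, proteoglycans and other metalloproteinases and is known from keratinocytes at the front of the migrating epidermis. It had the largest difference of any of the 10 genes. Its level was 3.53 and 0.75 on the db/db arrays labelled day 7 and -4.39 and -5.92 on the db/db + estrogen arrays. The db/db + vehicle arrays read -1.24 and 0.23, and the WT arrays -4.68 and -1.26. The estrogen arrays did not overlap those of db/db or vehicle, and the lower WT array lay between the estrogen arrays. With estrogen Mmp10 fell by 7.29 against db/db (SE 1.59, 157-fold, limma's adjusted p = 0.028), with -7.92 on the first slide and -6.67 on the second. A fixed block for slide gave an adjusted p of 0.0566. Leaving out db/db day 7 replicate 1 gave 0.142 (-5.90), leaving out estrogen day 7 replicate 1 gave 0.0953 (-8.06) and leaving out estrogen day 7 replicate 2 gave 0.168 (-6.53). The call was kept without db/db day 7 replicate 2 (-8.69, adjusted p = 0.0409).

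Against vehicle the Mmp10 difference was -4.65 (SE 1.59), with an adjusted p of 0.137 by limma. Against WT the db/db group read 5.11 higher (SE 1.59, adjusted p = 0.0613 by limma), with 8.21 on the first slide and 2.01 on the second. On the later label, day 14, the db/db arrays read -1.05 and 0.71, the db/db + estrogen arrays -1.50 and -3.48, the db/db + vehicle arrays -2.91 and -1.49, and the WT arrays -0.30 and -4.40. The WT pair alone spanned the values of both treated groups. The differences with estrogen and with vehicle against db/db were -2.32 and -2.03 there (SE 1.59 each), and neither passed.

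Mmp3, or stromelysin-1, degrades a broad range of matrix proteins and activates other metalloproteinases, and is best known from fibroblasts and from basal keratinocytes behind the wound edge. It read lower in both oil-treated groups. Its level was 6.26 and 5.64 on the db/db arrays labelled day 7, 3.49 and 3.52 with estrogen, 2.79 and 3.60 with vehicle, and 4.56 and 3.48 in WT. Both treated groups lay below both db/db arrays and overlapped each other. The differences against db/db were -2.44 with estrogen (SE 0.80, limma's adjusted p = 0.111) and -2.76 with vehicle (SE 0.80, adjusted p = 0.187), neither of which passed. Estrogen against vehicle gave 0.32, with a 95% interval from -1.46 to 2.09. On arrays labelled day 14 they were 4.98 and 5.80 in db/db, 4.17 and 2.93 with estrogen, 3.59 and 3.27 with vehicle, and 5.88 and 3.09 in WT. Again both treated groups lay below both db/db arrays, with differences of -1.84 and -1.96 (SE 0.80 each). The wide WT pair decided the comparison with db/db, which was 0.91 over all arrays, -0.49 without WT day 14 replicate 2 and 2.30 without replicate 1.

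Mmp12, the macrophage elastase, cleaves elastin and is known from macrophages in skin. For labelled day 7 it was the one gene of the 10 that read highest with estrogen. Its brighter probe had levels of -1.41 and -1.55 on the db/db + estrogen arrays labelled day 7, above -2.06 and -3.76 in db/db, -3.55 and -3.27 with vehicle, and -3.96 and -2.88 in WT. The estrogen pair overlapped no other group. The differences were 1.43 against db/db, 1.93 against vehicle and 1.94 against WT (SE 0.60 each), with adjusted p of 0.217, 0.108 and 0.112 by limma, so that none passed. With normexp background correction the difference against vehicle passed (1.57, SE 0.35, limma's adjusted p = 0.0402), and likewise in a fit of only the arrays compared (1.93, adjusted p = 0.0475), with adjusted p from 0.107 to 0.33 in the other refits adjusted over all probes. Its other probe was dimmer and was well above background on both estrogen arrays (-6.12 and -6.66) and on no other array labelled day 7. By that probe the estrogen arrays stood at least 2.35-fold above vehicle (limma's adjusted p = 0.0401) and at least 2.67-fold above db/db (adjusted p = 0.0764). These adjusted p are those of log2 differences that use signals not well above background, and the dimmer probe was tested only through the estrogen group. Its call against vehicle is therefore no further evidence for the brighter probe. The dimmer probe was not the one chosen to represent the gene and was not refitted with arrays left out. On arrays labelled day 14 the levels of the brighter probe were -3.30 and -4.28 with estrogen and -2.96 and -2.87 with vehicle, and the estrogen arrays were the lower ones. The change of the estrogen against vehicle difference between the labelled days was -2.81 (SE 0.85, limma's adjusted p = 0.272).

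The summed level of 11 macrophage markers on the arrays labelled day 7 was 163 to 185 with estrogen, 179 to 203 in db/db, 140 to 150 with vehicle and 67.0 to 113 in WT, in units of the array's 75th percentile. The sums with estrogen overlapped those of db/db and lay above those of vehicle and WT. With estrogen against db/db 1 of the 11 was lower and 0 higher, with a median of -0.17, and the 1 was the scavenger receptor gene Marco, which fell by 3.17 (SE 0.66, adjusted p = 0.0233 by limma). All 11 were well above background on all arrays of the db/db groups, and their part in the Mmp12 values was not tested.

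Mmp13 is the main interstitial collagenase of rodents, which cuts the fibrillar collagens and is known from dermal fibroblasts and wound edge keratinocytes. Its level on the arrays labelled day 7 was 4.10 and 1.47 in db/db, 2.51 and 0.02 with estrogen, 2.71 and 3.47 with vehicle, and -1.32 and 0.95 in WT. All arrays of db/db and vehicle lay above both WT arrays, and the estrogen pair spread over the gap. Against WT the difference was 2.97 in db/db (SE 1.05, limma's adjusted p = 0.0903) and 3.27 with vehicle (SE 1.05, adjusted p = 0.0832), and neither passed. The db/db arrays differed more from each other than the second of them did from WT. With estrogen against db/db it was -1.52 (SE 1.05, adjusted p = 0.487). At labelled day 14 all 6 arrays of the db/db groups lay between 1.90 and 2.90, above 0.90 and -0.37 in WT, with differences from WT of 1.84, 2.19 and 1.89 in db/db, estrogen and vehicle (SE 1.05 each) that did not pass.

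Mmp1b, a collagenase-like gene found in rodents near Mmp1a, was the gene of the 10 that came closest to present or absent. On the arrays labelled day 7 its level was -3.44 and -4.10 in db/db and -4.00 and -5.40 with vehicle. It was not well above background on the WT arrays (-8.87 and -8.25) or on the estrogen arrays (-9.31 and -9.72). Compared with WT it was at least 15.8-fold higher in db/db (limma's adjusted p = 0.0113) and at least 8.27-fold higher with vehicle (adjusted p = 0.0351, where 2.04% of all probes were called higher and Mmp1b alone of the 10 genes). With estrogen it was at least 18.7-fold lower than in db/db (adjusted p = 0.00756) and at least 9.78-fold lower than with vehicle (adjusted p = 0.0287). These bounds set the bright arrays against the faintest signal that counted as well above background on the dim ones. The adjusted p printed with each bound is that of the log2 difference, which uses the signals not well above background. Mmp1b was tested only through the groups where it was bright, and with the stricter filter on dim probes it was not tested.

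The estrogen against db/db call of Mmp1b was lost without estrogen day 7 replicate 2 (log2 difference -5.54, adjusted p = 0.0609), and the db/db against WT call without db/db day 7 replicate 1 (4.47, adjusted p = 0.0586). The calls of estrogen against vehicle and of vehicle against WT were lost without any 1 of their 4 arrays, with adjusted p from 0.0522 to 0.162 and from 0.0693 to 0.181, and with a fixed block for slide the latter had 0.0533. Background correction by normexp, which lifts faint signals, brought these 4 log2 differences to 1.16 for db/db against WT, 0.61 for vehicle against WT, -1.57 for estrogen against db/db and -1.02 for estrogen against vehicle, and all 4 calls were lost. On the arrays labelled day 14, by contrast, Mmp1b was well above background on all 8 arrays. The WT pair read -4.58 and -4.61 there, db/db -6.29 and -3.55, estrogen -3.86 and -6.42, and vehicle -4.52 and -4.09, and all groups overlapped. The change between the labelled days was -5.12 for db/db against WT (SE 1.33, limma's adjusted p = 0.11) and 5.53 for estrogen against db/db (SE 1.33, adjusted p = 0.19), so that neither passed. Both changes, and the log2 differences for labelled day 7 above, use Mmp1b signals not well above background, so that their sizes are uncertain.

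Mmp1a, the other gene of this pair, was faint. Signals well above background were found on the WT arrays (-6.07 and -3.67) and the db/db arrays (-6.15 and -6.02) labelled day 7 and on neither array of either oil-treated group. There it was at least 3.74-fold lower with estrogen and at least 2.80-fold lower with vehicle than in db/db, with adjusted p of 0.226 and 0.496 by limma. Against WT the bounds were at least 8.69-fold lower with estrogen (adjusted p = 0.0828) and at least 6.51-fold lower with vehicle (adjusted p = 0.107). None of these passed, and the adjusted p are again those of log2 differences that use signals not well above background. On the day 14 arrays it was well above background on 4 of 8 arrays, 1 in each group. For labelled day 7 Mmp1a was thus not well above background in the oil-treated groups and Mmp1b in WT and estrogen, although the genes lie close to each other, with Mmp3 between them, and share the AP-1 letters shown above. Whether either probe also captures transcripts of the other gene was not tested.

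Mmp9, gelatinase B, degrades gelatin and basement membrane collagen, is stored in neutrophil granules, and is also made by keratinocytes and macrophages. Its level on the arrays labelled day 7 was 1.88 and 0.45 in db/db, 1.19 and -0.33 with vehicle, -4.36 and -2.12 in WT, and -4.06 and -4.09 with estrogen. The db/db and vehicle arrays lay together and above all of the others, and the estrogen arrays lay within the range of the WT pair. Mmp9 was 4.40 higher in db/db than in WT (SE 1.04, 21.2-fold, limma's adjusted p = 0.0233). With estrogen it fell by 5.24 against db/db (SE 1.04, 37.7-fold, adjusted p = 0.0187) and by 4.50 against vehicle (SE 1.04, 22.7-fold, adjusted p = 0.0499). Within the slides the estrogen against db/db difference was -5.94 and -4.53. The vehicle group differed by 3.67 from WT (adjusted p = 0.0579) and by -0.73 from db/db (adjusted p = 0.808). The probe was spotted 10 times on each array, and these spots had a log2 SD between 0.03 and 0.21 with a median of 0.05, below the gaps between the arrays of db/db and of WT.

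The call against vehicle was lost without any 1 of its 4 arrays (adjusted p from 0.0801 to 0.221) and with a fixed block for slide (0.0611). The call against db/db was lost without db/db day 7 replicate 1 (-4.52, adjusted p = 0.0986) and without either estrogen array (-5.25 and -5.22, adjusted p of 0.104 and 0.102), and that of db/db against WT without WT day 7 replicate 1 (3.28, adjusted p = 0.12) or db/db day 7 replicate 1 (3.69, adjusted p = 0.123). Arrays labelled day 14 read -0.42 and 0.55 in db/db, 0.33 and 0.10 with vehicle, -0.05 and -2.87 with estrogen and -0.51 and -2.19 in WT. The estrogen arrays lay far apart and the differences of -1.52 against db/db and -1.67 against vehicle (SE 1.04 each) did not pass. The change of the estrogen against db/db difference between the labelled days was 3.71 (SE 1.47, adjusted p = 0.434).

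Mmp2, gelatinase A, is made by fibroblasts in most tissues and is activated at the cell surface by Mmp14, the membrane-type metalloproteinase. For Mmp2 the oil-treated groups lay below db/db and near each other on both labelled days. On the arrays labelled day 7 its level was 4.63 and 4.09 in db/db, 3.30 and 3.05 with estrogen, 3.27 and 3.10 with vehicle and 3.62 and 3.39 in WT. The db/db pair stood above all 6 other arrays. On those labelled day 14 it was 4.51 and 4.67 in db/db, 3.46 and 3.42 with estrogen, 3.73 and 3.23 with vehicle, and 3.66 and 2.26 in WT, and again the db/db pair stood above the rest. The differences against db/db were -1.18 for both estrogen and vehicle for labelled day 7, and -1.15 and -1.11 for labelled day 14 (SE 0.38 each), with unadjusted p between 0.0113 and 0.0158 and adjusted p between 0.108 and 0.38 by limma, so that none passed. Estrogen against vehicle gave -0.01 (95% interval -0.86 to 0.85) and -0.04 (-0.89 to 0.81).

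The one call of labelled day 14 was Mmp2, which was 1.63 higher in db/db wounds than in WT wounds (SE 0.38, 3.09-fold, adjusted p = 0.0173 by limma). It was 0.93 without WT day 14 replicate 2 (adjusted p = 0.0904), the array with the lowest 75th percentile, and it was also lost without db/db day 14 replicate 1 (1.71, adjusted p = 0.072) and replicate 2 (1.55, adjusted p = 0.0956). A fixed block for slide gave 1.36 (adjusted p = 0.184), and no slide of that label holds both groups.

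Mmp14 was the steadiest gene, with a range of 1.58 between its highest and lowest group means. Its level on the arrays labelled day 7 was 2.48 and 1.81 in db/db, 1.86 and 2.42 in WT, 1.69 and 1.13 with estrogen, and 0.92 and 1.30 with vehicle. On those labelled day 14 it was 2.74 and 2.64 in db/db, 2.10 and 2.00 in WT, 1.77 and 1.40 with estrogen and 1.63 and 1.38 with vehicle. All 8 treated arrays lay below all arrays of db/db and WT of the same label. The differences against db/db were -1.04 with vehicle and -0.73 with estrogen for labelled day 7, and -1.19 and -1.11 for labelled day 14 (SE 0.29 each). The smallest adjusted p of these was 0.12 by limma, and none passed. Estrogen against vehicle gave 0.30 (95% interval -0.35 to 0.95) and 0.08 (-0.57 to 0.73). Mmp3, Mmp2 and Mmp14 were the same 3 genes that were lower at this unadjusted threshold with vehicle on both labelled days and with estrogen for labelled day 14.

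**Figure D2:**
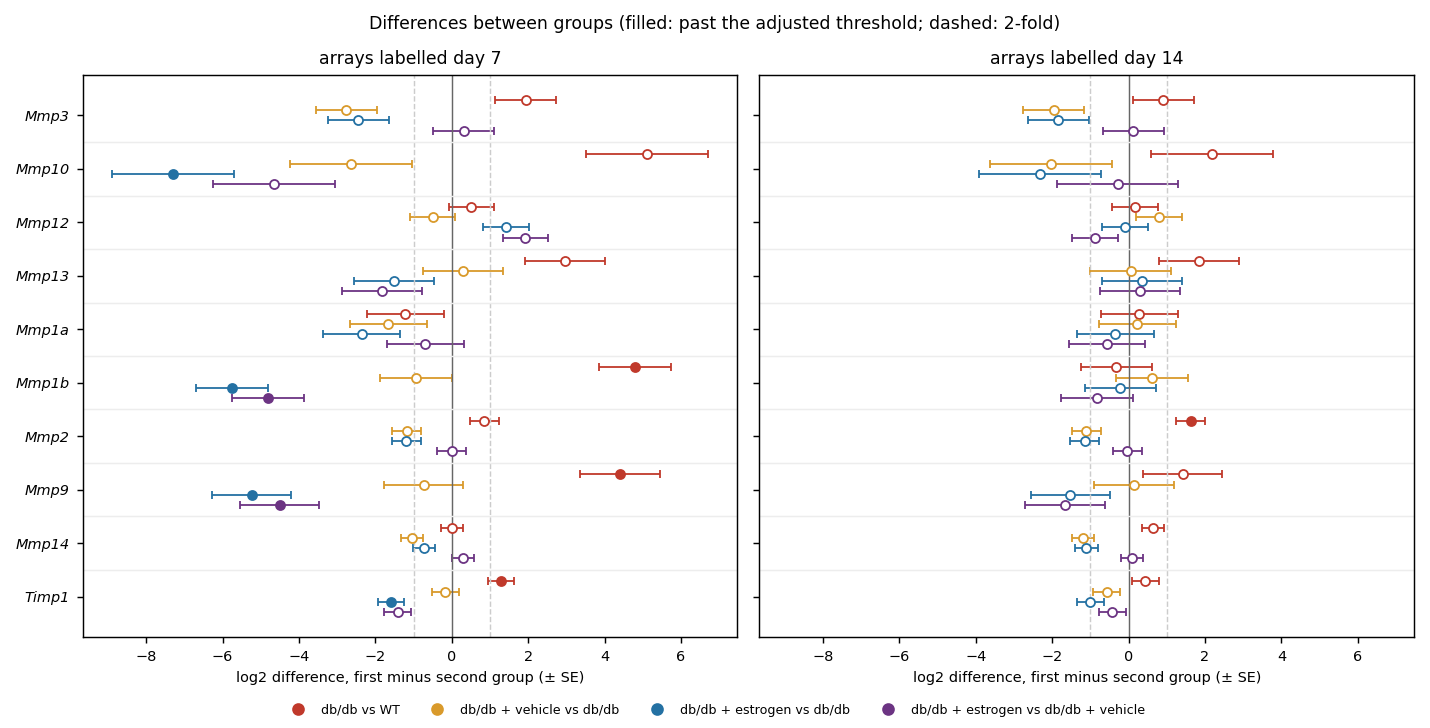
Log2 differences (horizontal axis, first minus second group, bars = SE from the fit of all 16 arrays) of the 10 genes in 4 comparisons, for arrays labelled day 7 (left) and day 14 (right). Filled points passed an adjusted p of 0.05 with a fold change above 2, and dashed lines mark a 2-fold difference. For Mmp3, Mmp2 and Mmp14 the points for vehicle and estrogen lie together, while for Mmp10, Mmp9, Mmp1b and Timp1 they lie apart for labelled day 7.

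Timp1, the inhibitor, is secreted by many cell types and is itself induced in wounds. On the arrays labelled day 7 its level was 4.55 and 4.36 in db/db, 4.74 and 3.82 with vehicle, 3.13 and 3.19 in WT, and 2.64 and 3.09 with estrogen. The db/db and vehicle arrays overlapped and lay above all arrays of WT and estrogen. Timp1 was 1.29 higher in db/db than in WT (SE 0.35, 2.45-fold, limma's adjusted p = 0.039) and fell by 1.59 with estrogen against db/db (SE 0.35, 3.01-fold, adjusted p = 0.0295). Against vehicle the difference was -1.42 (SE 0.35, adjusted p = 0.0587), which did not pass. Both calls were lost without any 1 of their arrays, with differences from 1.20 to 1.38 and adjusted p from 0.0989 to 0.15 for the first and differences from -1.82 to -1.36 and adjusted p from 0.0813 to 0.191 for the second. A fixed block for slide gave adjusted p of 0.0683 and 0.0521. At labelled day 14 all 8 arrays lay between 4.44 and 6.11, with 5.59 and 6.11 in db/db, 5.27 and 5.55 in WT, 5.27 and 4.44 with estrogen and 5.12 and 5.44 with vehicle. None of the 6 comparisons of that label passed. In both comparisons it passed, the inhibitor had the same direction as Mmp9 and Mmp1b, and protein amounts were not measured.

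The order of the groups for labelled day 7 put db/db first and estrogen last for Mmp10, Mmp9, Mmp1b and Timp1, with vehicle and then WT between them in each. The single step between neighbours in these orders that passed was that from vehicle to WT for Mmp1b. For Mmp3, Mmp2 and Mmp14 db/db came first, WT second and the oil-treated groups last, and no step between neighbours passed. For Mmp14 the step from db/db to WT was only 0.003 (SE 0.29), and the arrays of these groups overlapped. Whether a comparison differed between the labelled days was tested as a difference of differences. No gene passed for db/db against WT (0 of 10, 1 at an unadjusted p below 0.05), estrogen against db/db (0 of 10, 2), vehicle against db/db (0 of 10, 0) or estrogen against vehicle (0 of 9, 2) by limma. The shares of all probes called were 0.68%, 0.0953%, 0% and 0.00979%, and 9.41%, 6.26%, 2.81% and 7.15% at the unadjusted threshold. A change seen for labelled day 7 and not for labelled day 14 is therefore not shown to differ between them. Estrogen against WT gave 0 of 9 genes for labelled day 7, with 3.65% of all probes called. An unadjusted p below 0.05, at any fold change, was held there by 3 genes and 5519 of 29784 probes. For labelled day 14 no gene of the 9 tested passed for either treated group against WT by limma's adjusted p. The shares of all probes called were 8.36% for estrogen and 8.8% for vehicle. An unadjusted p below 0.05 was held by 0 genes in each, and by 8657 of 30290 probes for estrogen and 9591 of 30536 for vehicle.

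The wider family was read from lists that were written for this report. Of 14 other Mmp genes 13 had a probe, since Mmp27 had none, and 9 were tested in db/db against WT at labelled day 7. There 3 were higher and 0 lower, with a median of 0.67. Mmp8, the neutrophil collagenase, was 5.24 higher (SE 0.62, limma's adjusted p = 0.00118), Mmp25, a membrane-type enzyme of leukocytes, 2.79 higher and Mmp7, matrilysin, 2.00 higher. The same 3 were lower with estrogen against db/db, 3 of 10 tested with a median of -0.21, with differences of -6.25 for Mmp8, -4.18 for Mmp25 and -2.87 for Mmp7. Mmp8 read 2.06 and 1.08 in db/db, -1.49 and -1.42 with vehicle, -3.42 and -3.92 in WT and -5.12 and -4.26 with estrogen, so that the vehicle arrays stood between the others, and it was also lower with estrogen than with vehicle (-3.24). At labelled day 14 Mmp8 (3.01) and Mmp19 (1.30) were higher in db/db wounds than in WT wounds, 2 of 10 tested.

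Of 5 other inhibitors 4 were tested. None passed in db/db against WT on either labelled day by limma's adjusted p, with 0 and 1 at the unadjusted threshold for labelled days 7 and 14. On the arrays labelled day 7 Timp3, the inhibitor that stays bound to the matrix, had levels of 4.22 and 4.22 with estrogen, above 2.64 and 2.02 in db/db, 1.64 and 1.84 with vehicle and 2.70 and 2.54 in WT. It was 1.89 higher with estrogen than db/db (SE 0.35, limma's adjusted p = 0.0132, where 2.2% of all probes were called higher) and 2.48 higher than with vehicle (SE 0.35, adjusted p = 0.00875, where 1.32% were). Reck, a membrane-anchored inhibitor, was 1.27 higher with estrogen than with vehicle. Timp1 and Timp3 thus had opposite directions with estrogen on these arrays.

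Of 6 genes of the plasminogen system, whose protease plasmin activates several metalloproteinases, 1 of 5 tested was higher in db/db wounds than in WT wounds at labelled day 7, the urokinase receptor gene Plaur by 1.53, and again 1 of 5 at labelled day 14, Plaur by 1.05 (SE 0.32, limma's adjusted p = 0.0444). Plaur fell by 1.80 with estrogen against db/db, while Plau, which encodes urokinase, was 1.33 higher. Of 15 genes for inducers and AP-1 subunits, 4 were higher in db/db wounds than in WT wounds at labelled day 7, with a median of 0.91: Il1b by 3.81, Tnf by 3.15, Osm by 2.91 and Tgfb1 by 1.08. Of these Il1b (-6.48), Tnf (-3.15) and Osm (-3.07) fell with estrogen against db/db, and with vehicle 0 of the 15 passed by limma's adjusted p and 2 at the unadjusted threshold. Of the inducers Il1b alone was lower with estrogen than with vehicle (-4.73). None of the 9 genes for AP-1 and Ets factors passed for labelled day 7 in these comparisons. At labelled day 14 Fos, Fosb, Junb and Osm were higher in db/db wounds than in WT wounds, by 2.58, 4.88, 1.38 and 2.35, 4 of 15 with a median of 1.02, and the change of the Fosb difference from labelled day 7 to labelled day 14 passed its own test (5.65, SE 1.05, limma's adjusted p = 0.0485). The levels of Fosb in WT were 1.92 and 2.75 for labelled day 7 and -1.53 and -2.48 for labelled day 14, and in db/db 0.52 and 2.61 and then 3.51 and 2.23, so that both WT arrays read lower for labelled day 14 and the db/db pairs overlapped. As db/db and WT shared no slide for labelled day 14, and list genes were not refitted with slide as a block, these differences may include slide.

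**Figure D3:**
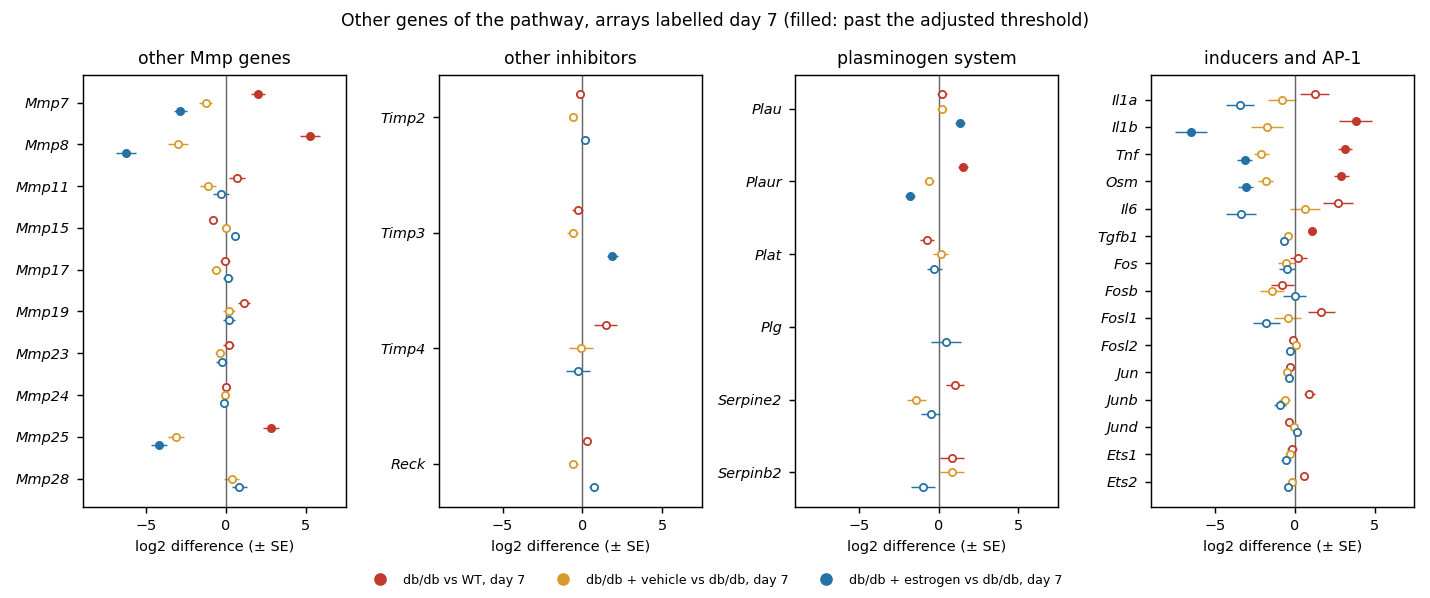
Log2 differences (horizontal axis, bars = SE) of the other genes of the pathway in 3 comparisons on the arrays labelled day 7, by list. Filled points passed the adjusted threshold. Mmp8, Mmp25, Il1b, Tnf and Osm were high in db/db against WT and low with estrogen against db/db, and Timp3 and Plau passed in the upward direction with estrogen.

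Of the cell type lists, those of neutrophils and activated keratinocytes had most of their genes lower with estrogen than in db/db, for labelled day 7. Of 11 neutrophil markers with a probe, which include Mmp8, 7 were higher in db/db wounds than in WT wounds at labelled day 7 with a median of 5.24, and 10 were lower with estrogen than in db/db with a median of -5.49. With vehicle 2 were lower than in db/db (median -3.02) and 4 were lower with estrogen than with vehicle (median -2.65). The sum of their levels was 50.9 to 65.8 with estrogen, 452 to 521 in db/db, 462 to 489 with vehicle and 351 to 393 in WT, and at labelled day 14 it was 275 to 496 over all groups. The sum was led by S100a8 and S100a9, which keratinocytes of wounds also express, on all arrays but the estrogen arrays labelled day 7. On those it was led by Csf3r, the marker of the 11 that was not called lower with estrogen than in db/db. The levels of Csf3r with estrogen overlapped those in db/db. All 11 markers were well above background on both db/db and both vehicle arrays, 10 on both estrogen arrays and 9 on both WT arrays, and Ngp was not well above background on either WT array. Of the 5 markers of activated keratinocytes, 5 were lower with estrogen than with vehicle for labelled day 7 (median -3.88), 3 were lower than in db/db, and the sum was 35.6 to 42.9 with estrogen, 239 to 240 in db/db, 317 to 637 with vehicle and 346 to 428 in WT. In db/db against WT 0 of these 5 passed, with a median of -0.58. The sum over 9 fibroblast markers was 751 to 881 with estrogen, 771 to 809 in db/db, 668 to 702 with vehicle and 964 to 1032 in WT. In db/db against WT 1 of the 9 was higher, Pdgfra by 1.07, with a median of -0.31, where 4.18% of all probes were called higher. With estrogen or vehicle against db/db 0 of the 9 passed by limma, at the adjusted or the unadjusted threshold. With estrogen against db/db the medians were 0.77 for keratinocyte, 0.13 for endothelium, 1.13 for adipocyte, 0.50 for skeletal muscle and 0.005 for mast cell markers. Of these lists, the keratinocyte one had 1 gene higher, and 0 passed in the others, by limma's adjusted p. The part of these cell types in the results for Mmp10, Mmp9, Mmp1b and Timp1 was not tested.

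**Figure D4:**
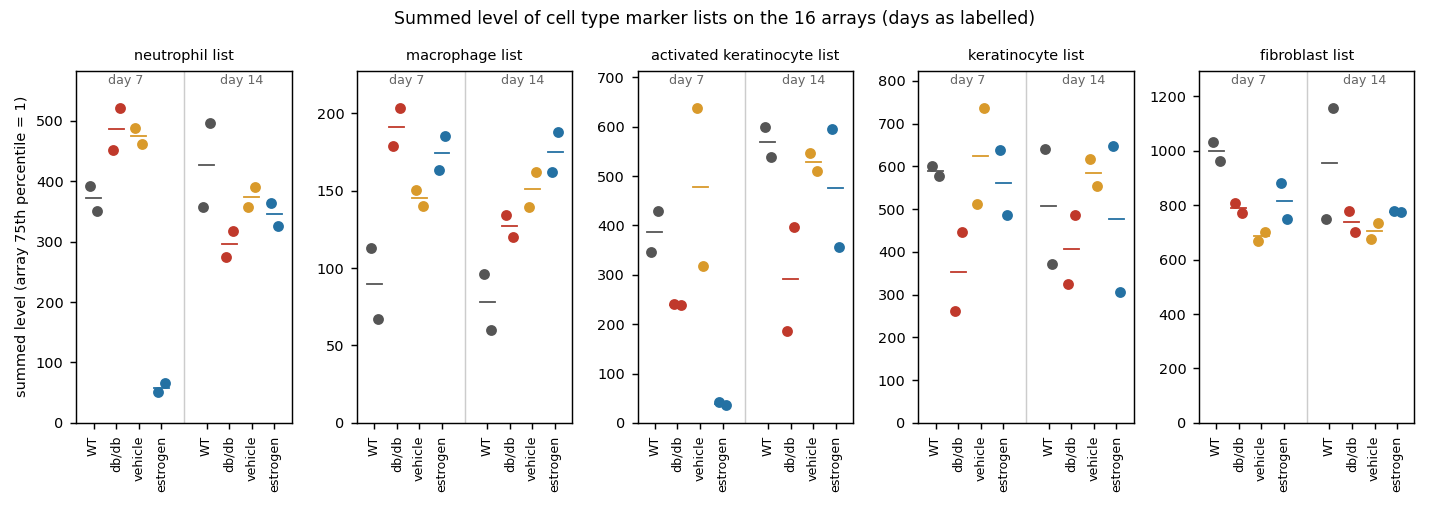
Summed level (vertical axis, linear scale, 1 = the 75th percentile of the array) of 5 lists of cell type markers on each of the 16 arrays. Points are single arrays and bars are means of 2 arrays. The neutrophil list read 50.9 to 65.8 and the activated keratinocyte list 35.6 to 42.9 on the db/db + estrogen arrays labelled day 7, while the macrophage, keratinocyte and fibroblast lists showed no such drop.

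Over the 16 arrays Mmp9 ran most closely with Mmp1b (r = 0.899) and Mmp10 (r = 0.842), Mmp1b with Timp1 (r = 0.823), and Mmp2 with Mmp3 (r = 0.795). Mmp12 had r between -0.512, with Timp1, and 0.277, with Mmp13. These values describe 16 points in 8 groups that share slides and scan. Mmp1b was well above background on 12 of the 16 arrays and Mmp1a on 8. Their values of r here and below also use the signals of the other arrays. Among 16931 genes the closest pattern to that of Mmp9 was that of Amer2 (r = 0.927), to that of Mmp10 that of Slc39a4 (r = 0.924), to that of Mmp1b that of Lrp8 (r = 0.949) and to that of Timp1 that of Ctps (r = 0.959). For Mmp3 it was Srgap3 (r = 0.912), for Mmp2 Fam107b (r = 0.884), for Mmp14 Traf4 (r = 0.951), for Mmp13 Nedd8 (r = 0.856) and for Mmp1a Prl3a1 (r = 0.868).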

How the data were processed

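Gene expression was measured on 16 arrays read in 1 colour. The authors deposited scanner files made with Feature Extraction 11.0.1.1, whose intensity values per spot are background-subtracted and spatially detrended, unscaled between arrays. These files also give the deposited median intensity of spot and local background, and marks for outlier, saturated and well above background spots. The deposited series matrix holds a ratio per probe, made by the authors in GeneSpring 12.1 with 3 filters that are not named. On each array it was proportional to the processed signal, within 0.1% for 99.4% of probes or more. Outlier spots were left out, spots of a probe were averaged, and log2 signals were scaled to the 75th percentile of each array. A RefSeq table named 27427 of 39429 probes. A gene was read through its probe of highest mean over the 16 arrays.

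limma 3.58.1 (R 4.3.3) was fitted with 1 coefficient per group, which left 8 residual degrees of freedom, and tests were two-sided. A probe was tested where both arrays of at least 1 group compared were well above background. Where no array of a group was, a bound is given as "at least", set on each array against the lowest signal well above background, or the probe's own where that was higher. The fit was tested on simulated data. The study names a moderated test at p of 0.05 with a fold change of 2 and mentions no adjustment, so counts without adjustment stand beside. With 2 arrays per group, their number limits the precision. The p-values measure the spread between these samples only. The genes and lists were chosen with earlier results of these data known. The named genes are the 10 members and, of the lists, those that passed and those without a probe. Some results are not reported here. Alternatives were normexp (offset 50), quantile normalization, no filter or a stricter one on dim probes, the series matrix, a fit of the compared arrays alone, a fixed or random block for slide (statmod 1.5.0), a replicate block, the unadjusted threshold, every probe of a gene, and each array left out. Array annotation rests on another build than the RefSeq table, and its positions are not printed. Promoter windows are RefSeq's on GRCm38.p6.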

Additional observations from a re-analysis of the deposited data

How the results depend on the processing

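Counts are of genes past the threshold on arrays labelled day 7 unless another label is given. For db/db against WT the count was 3 and became 0 with only the arrays compared, 6 at the unadjusted threshold and 0 to 2 without 1 array. For estrogen against db/db it was 4, and 2 with only the arrays compared, with slide as a fixed block or with a replicate block, 8 unadjusted and 0 to 3 without 1 array. For estrogen against vehicle it was 2, and 1 with no filter on dim probes, with a block for slide, fixed or random, or with only the arrays compared (there Mmp12, higher), 0 with the stricter filter or the replicate block, 5 unadjusted and 0 to 1 without 1 array, and with normexp the 2 were Mmp9, lower, and Mmp12, higher, in place of Mmp9 and Mmp1b, both lower. For vehicle against WT it was 1, and 0 with normexp, the stricter filter, only the arrays compared, the fixed block of slide, the replicate block or without 1 array, 3 with quantile normalization and 6 unadjusted. For estrogen against WT it was 0, with 2 unadjusted and 0 to 1 without 1 array. Vehicle against db/db gave 0 and 3 unadjusted. For labelled day 14, db/db against WT gave 1, and 0 with only the arrays compared or the fixed block of slide, and 0 to 2 without 1 array. Estrogen and vehicle against db/db gave 0 each and 3 each unadjusted, and each against WT gave 0, and 0 to 1 without 1 array. For the differences between labelled days the unadjusted counts were 1, 2 and 2 for db/db against WT, estrogen against db/db and estrogen against vehicle, beside 0 in each. All other counts stayed within 1.5 times.

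For labelled day 7 the replicate number was also the slide. Same-numbered deviations from group means correlated between -0.454 and 0.389, in both directions, which does not decide whether the arrays are paired. The replicate block is given as an alternative. Of 90 gene differences that passed or were at least 0.8 in size, the signs of 2 turned under another setting, both with slide as a fixed block: Mmp9 in db/db against WT for labelled day 14 became -0.11, and the change of Mmp1a in that comparison between labelled days -0.0103. Without 1 array signs turned in 7: Mmp9 in estrogen against WT for labelled day 7 (-1.96 to 0.29), Mmp3 in db/db (-0.49 to 2.30), vehicle (-2.45 to 0.34) and estrogen (-2.33 to 0.46) against WT for labelled day 14, Mmp1b in estrogen against vehicle for labelled day 14 (-2.11 to 0.45), and the change between labelled days of db/db against WT for Mmp3 (-2.42 to 0.37) and Mmp13 (-2.44 to 0.18). No difference that had passed turned its sign. The cause was not tested. Faint signals limit Mmp1a and Mmp1b, whose fold changes are bounds, while their log2 differences also use signals not well above background.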

Other observations

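Of 13 genes for matrix proteins, among them substrates of these enzymes, all tested, 1 was higher in db/db wounds than in WT wounds at labelled day 7 with a median of 0.03, namely Spp1, which encodes osteopontin (3.22). With estrogen 1 of the 13 was lower than in db/db (median 0.16), namely Tnc, which encodes the wound matrix protein tenascin C (-2.69), and it was also lower than with vehicle (-2.07). The fibrillar collagen genes Col1a1, Col1a2 and Col3a1, which did not pass, read 0.19, 0.15 and 0.19 with estrogen against db/db for the same label. At labelled day 14 Spp1 and the basement membrane collagen gene Col4a1 were higher in db/db wounds than in WT wounds, by 2.50 and 1.04, with a median of -0.52 over the 13.

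Of 12 Adam and Adamts genes, relatives of the metalloproteinases, Adam8 and Adam9 were higher in db/db wounds than in WT wounds at labelled day 7, by 1.87 and 1.15, and Adam8 for labelled day 14, by 1.02. None of the 12 passed with estrogen or vehicle against db/db on either labelled day by limma's adjusted p; at the unadjusted threshold 2 were lower with estrogen and 1 with vehicle for labelled day 7, and 0 for labelled day 14.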
